A study of Mus musculus with 10 samples.

Results

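The data describe 9 genes of the *Msx*, *Alx* and *Dlx* homeobox families, *Msx1*, *Msx2*, *Alx1*, *Alx4*, *Dlx1*, *Dlx2*, *Dlx3*, *Dlx5* and *Dlx6*, in bulk RNA-seq of the mouse anterior fontanelle (AF). They were taken by gene symbol from a table of 23080 genes, and 9 of 9 passed the filter on low counts that left 16267 genes to test. The AF is the soft, membrane-spanned gap where the frontal and parietal bones of the skull vault meet. Samples were taken at E18.5 and hold bone as well as the fibrous tissue of the suture, with skin and brain left out. They came from 5 embryos labelled WT and 5 labelled NCC Fgfr2 KO, with the genotype Wnt1-Cre; Fgfr2fl/fl. The Wnt1 promoter drives Cre in neural crest cells (NCC), so floxed *Fgfr2* is recombined in tissue that these cells form, while other cells of the dissected region keep the gene. The controls are called wild type in the labels and littermates in the study's text, which does not say whether they carried floxed alleles or Cre. The study speaks of littermate pairs, but which libraries form a pair is not given in the sources used here, so the libraries were compared unpaired.

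Homeobox genes encode transcription factors that bind DNA through a homeodomain, whose core site is rich in A and T. *Msx* genes act downstream of BMP signals in the dermal and bone-forming mesenchyme of the head, *Alx* genes pattern the frontonasal mesenchyme that neural crest forms, and *Dlx* genes lie in convergent pairs that pattern the jaws and act in bone, skin and forebrain neurons. Mutations in MSX2 and ALX4 cause enlarged parietal foramina in people, which are persistent openings of the skull vault.

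Depth ran from 20774667 to 28515434 estimated counts per library, of which one ribosomal RNA gene took 18.6% to 33.5%. Values are TMM-scaled CPM, the counts of a gene relative to the library total, with a scaling that corrects for depth and for a few very abundant genes. *Fgfr2*, the targeted gene, went against the label. Its total CPM was 176 to 235 in libraries labelled control and 273 to 357 in those labelled mutant, a log2 fold change of 0.67 (SE 0.09, adjusted p = 0.0487 by edgeR's quasi-likelihood test, higher in 5 of 5 libraries). This call was lost in 8 of 10 fits that left out 1 library, and kept without control-labelled library 2 and without mutant-labelled library 2, while the log2 fold change stayed between 0.63 and 0.75. The adjusted p was 0.427 with a replicate block, 0.152 with library size alone and 0.0557 with no filter, and 0.0625, 0.999 and 0.0505 with *Xist*, the osteoblast score or the neuron score as a covariate. It was 4.1e-10 by DESeq2's Wald test, 0.00966 by limma voom and 0.00206 by edgeR without both libraries numbered 2. By edgeR it was 0.0413 with DESeq2 size factors and 0.0282 with at least 10 counts in every library. The unadjusted p by edgeR was at most 5.08e-05 in the 10 fits that left out 1 library. With the osteoblast score it was 0.000175. The table gives 1 count per gene, so loss of the floxed exons could not be examined, and libraries are called control-labelled and mutant-labelled below. Mutant-labelled library 2 stood apart from the other 9 on the first principal component. It also had the highest summed CPM of 10 neuron markers, 713 against 90.3 to 297 elsewhere, and *Dlx1*, *Dlx2* and *Dlx3* are also given without it. In tissue homogenates like these, fewer cells of a type and less RNA per cell cannot be told apart.

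None of the 9 genes had an adjusted p-value under 0.05, against 0.0184% of all genes tested (3 genes). At an unadjusted p under 0.05 by edgeR, 2 of 9 passed, *Dlx3* and *Dlx6*, both lower in mutant-labelled libraries, where the background was 7.49% of genes in either direction and 3.82% in that direction. DESeq2's Wald test called 0 of 9, against 0.597% of genes, and gave the same pair an unadjusted p under 0.05. No member separated the libraries of the 2 labels without overlap, as 1.48% of all tested genes did (0.701% with the mutant-labelled libraries lower). The fitted log2 fold change was below 0 for 5 members and above 0 for 4, with a median of -0.0093, and 49.7% of all tested genes were below 0. Across members the width of the 95% interval differed widely, as the plot of fitted changes shows.

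**Figure D1:**
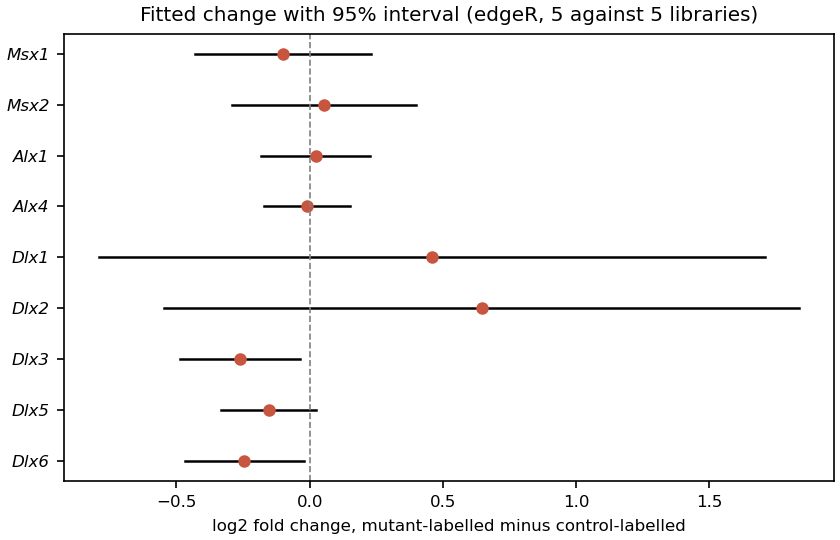
Fitted log2 fold change of each gene, mutant-labelled minus control-labelled (x axis), with points for the estimate and lines for the 95% interval from edgeR (5 against 5 libraries). The intervals of *Dlx3* and *Dlx6* lie below 0 before adjustment over genes, those of *Alx1* and *Alx4* are narrow around 0, and those of *Dlx1* and *Dlx2* span more than 2 log2 units.

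Levels of different genes were compared as CPM per kilobase of exon in the GENCODE M21 annotation of GRCm38. In control-labelled libraries *Dlx3* was highest, at 21.6 ± 1.74 CPM per kilobase (SD, n = 5), closely followed by *Dlx5* at 21.3 ± 1.71, and the ranges of this pair overlapped. *Alx4* came next at 15.6 ± 0.557, apart from *Dlx5* above it and *Msx1* below it. *Msx1* at 11.5 ± 2.19 and *Dlx6* at 7.82 ± 1.05 overlapped in range. *Alx1* at 5.19 ± 0.598 and *Msx2* at 3.91 ± 0.685 also overlapped, and both lay below *Dlx6*. *Dlx1* at 0.527 ± 0.277 and *Dlx2* at 0.39 ± 0.322 were the lowest, overlapped each other and lay apart from *Msx2*. Order in the mutant-labelled libraries differed in one place only, with *Dlx5* at 19.1 ± 2.07 above *Dlx3* at 18.0 ± 3.03, and those ranges overlapped too. There *Alx4*, at 13.5 to 18.3 CPM per kilobase, overlapped both *Dlx3* and *Msx1* (8.61 to 13.8), so it stood apart under the control label only. *Dlx6* (5.65 to 7.38) likewise overlapped *Alx1* (4.54 to 6.06) and lay apart from *Msx1*, the reverse of the control-labelled libraries.

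**Figure D2:**
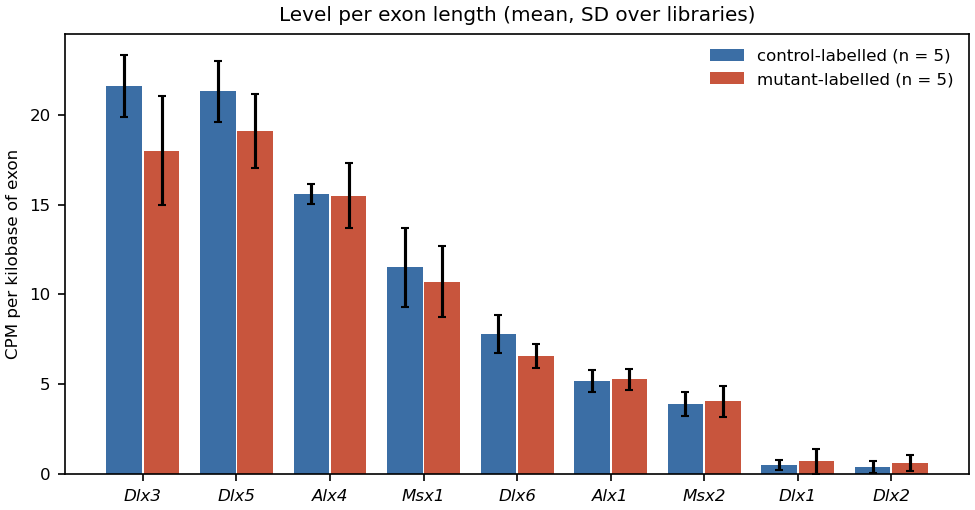
Level of each gene in CPM per kilobase of exon (y axis), as the mean of 5 control-labelled and 5 mutant-labelled libraries with the SD as error bars. *Dlx3*, *Dlx5* and *Alx4* have the highest means per exon length and *Dlx1* and *Dlx2* the lowest under both labels, and *Alx4* and *Msx1* overlap in range under the mutant label.

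*Msx1* and *Msx2* encode homeodomain repressors that respond to BMP signals and act in growth of the skull vault. *Msx1* lies on the minus strand at chr5:37820485-37824583 and *Msx2* on the minus strand at chr13:53466884-53473074 (GRCm38). *Msx1* stood at 34.8, 24.5, 42.2, 37.3 and 39.3 CPM in control-labelled libraries 1 to 5, and at 26.7, 31.1, 42.9, 34.6 and 30.6 CPM in mutant-labelled libraries 1 to 5. The lowest value was a control-labelled one, and 4 of 5 mutant-labelled values lay below the control median while the groups overlapped. Control-labelled libraries averaged 35.6 ± 6.79 and mutant-labelled ones 33.2 ± 6.12 CPM (SD, n = 5 each). The log2 fold change was -0.10 (SE 0.15, 95% interval -0.43 to 0.23, adjusted p = 0.913 by edgeR). *Msx2* stood at 13, 9.47, 11.9, 14.6 and 15.1 CPM under the control label, and at 11.1, 11.4, 17.7, 14.8 and 11.5 CPM under the mutant label. Mutant-labelled library 3 was the highest of the 10 for both genes, and control-labelled library 2 the lowest. The *Msx2* log2 fold change was 0.05 (SE 0.16, 95% interval -0.29 to 0.40, adjusted p = 0.960 by edgeR), with 3 of 5 mutant-labelled values below the control median and 1 above every control value.

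The pair varied together between libraries of one label. With group means removed, log2 CPM of *Msx1* and *Msx2* had Pearson's r = 0.847 (p = 0.00646) and Spearman's rho = 0.867 (p = 0.00576) over 10 libraries, by exact permutation within each label. Adjusted over the 36 pairs of members, neither passed (0.116 and 0.133), and r was 0.706 without the 2 libraries farthest from the *Msx1* median. The log2 ratio of *Msx2* to *Msx1* averaged -1.47 ± 0.198 under the control label and -1.33 ± 0.0975 under the mutant label (exact permutation p = 0.135, 0.270 adjusted over 4 ratios). Without control-labelled library 3 the difference of 0.14 was 0.0545. Control-labelled library 3 had the lowest ratio, -1.82, and the other 9 libraries lay between -1.44 and -1.23.

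Because this pair varied together, their proximal promoters are shown, from 250 bases before to 50 bases after the RefSeq start (GRCm38.p6), 5′ to 3′ on the gene's strand, the minus strand for both. Capitals mark the homeodomain core TAATTA, which reads the same on both strands, and the CCAAT box, also where it lies on the opposite strand as ATTGG. The *Msx1* window is chr5:37824536-37824835 and the *Msx2* window chr13:53472731-53473030. The *Msx2* window lies wholly inside the gene span given above.
Msx1: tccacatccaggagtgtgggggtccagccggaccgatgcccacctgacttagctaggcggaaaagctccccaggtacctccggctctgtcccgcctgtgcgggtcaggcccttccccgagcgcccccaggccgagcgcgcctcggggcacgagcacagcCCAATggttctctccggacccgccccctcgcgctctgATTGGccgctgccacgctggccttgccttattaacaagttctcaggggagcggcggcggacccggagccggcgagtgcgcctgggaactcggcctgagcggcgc
Msx2: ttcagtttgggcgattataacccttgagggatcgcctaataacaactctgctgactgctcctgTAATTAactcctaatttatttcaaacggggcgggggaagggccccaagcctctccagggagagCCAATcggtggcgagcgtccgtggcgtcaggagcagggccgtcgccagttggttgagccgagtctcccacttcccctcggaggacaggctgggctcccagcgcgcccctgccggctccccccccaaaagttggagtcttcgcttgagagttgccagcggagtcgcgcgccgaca
Both windows hold CCAAT, which 37.4% of 32851 promoters of this length hold on either strand. Counted from the start site, its first base lies at -91 on the gene's strand of *Msx1*, with another on the opposite strand at -54, and at -124 in *Msx2*. TAATTA was found in *Msx2* alone of this pair, at -187, and in 5.29% of all promoters. TATAAA was in neither window (13.6% of all), nor was the P3 palindrome that pairs of homeodomains bind (0.487% of all). The windows are 70.0% and 61.0% G and C, against a median of 52.7%. These letter matches describe the sequence and show no binding.

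*Alx1* and *Alx4* encode paired-type homeodomain activators of the frontonasal and skull vault mesenchyme. *Alx1* lies at chr10:102998707-103030215 on the minus strand, and *Alx4* at chr2:93642384-93681339 on the plus strand. *Alx1* stood at 33.5, 32.1, 24.5, 29.1 and 30.0 CPM in control-labelled libraries 1 to 5, and at 29.8, 26.2, 29.1, 31.8 and 34.9 CPM in mutant-labelled libraries 1 to 5. The groups covered nearly the same range, with means of 29.9 ± 3.44 and 30.4 ± 3.24 CPM and a log2 fold change of 0.02 (SE 0.09, 95% interval -0.18 to 0.23, adjusted p = 0.972 by edgeR). *Alx4* stood at 111, 112, 114, 108 and 104 CPM under the control label, and at 112, 95.3, 129, 103 and 108 CPM under the mutant label. Its log2 fold change was -0.01 (SE 0.07, 95% interval -0.17 to 0.15, adjusted p = 0.985 by edgeR), the narrowest interval of the 9 genes. The control-labelled libraries were close together, with an SD of 0.0521 on the log2 CPM scale, and the mutant-labelled ones spread to 0.162, with library 3 above and libraries 2 and 4 below every control value. That difference in spread was not tested. *Alx1* shares 243 exon bases, 4.22% of its exon length, with *Gm17028* on the same strand, so some of its reads could have been assigned to either gene.

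The log2 ratio of *Alx4* to *Alx1* averaged 1.89 ± 0.192 under the control label and 1.85 ± 0.203 under the mutant label (exact permutation p = 0.714). It was highest in the libraries numbered 3 of both labels, at 2.21 and 2.15. Unlike the *Msx* pair, the *Alx* pair showed little joint variation, with r = 0.0587 (permutation p = 0.894) over 10 libraries. Whether the r of these pairs differ was not tested.

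*Dlx3* and *Dlx5* encode factors that promote osteoblast differentiation, *Dlx3* also acts in skin and hair, and *Dlx5* and *Dlx6* specify the lower jaw. *Dlx3* lies at chr11:95120119-95125296 on the plus strand. *Dlx3* stood at 52.3, 51.0, 57.3, 61.6 and 59.3 CPM in control-labelled libraries 1 to 5, and at 44.9, 40.9, 45.9, 42.4 and 60.6 CPM in mutant-labelled libraries 1 to 5. Of the mutant-labelled values, 4 of 5 lay below every control value, and library 5 lay above 4 of 5 control values. Means were 56.3 ± 4.55 and 47.0 ± 7.90 CPM, a log2 fold change of -0.26 (SE 0.10, 95% interval -0.49 to -0.04, unadjusted p = 0.0262, adjusted p = 0.634 by edgeR), and a two-sided exact permutation test gave 0.0556. Without mutant-labelled library 5 the log2 fold change was -0.37 (unadjusted p = 0.000293, adjusted p = 0.179 by edgeR). Without mutant-labelled library 2 it was -0.21 (unadjusted p = 0.0685 by edgeR). The unadjusted p was 0.05 or more in 7 of 10 fits that left out 1 library (control-labelled 3, 4 or 5, or mutant-labelled 1, 2, 3 or 4), with a highest value of 0.0695, and it was 0.0571 by limma voom.

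*Dlx5* and *Dlx6* face each other on chromosome 6, at chr6:6877805-6882085 on the minus strand and chr6:6863334-6868568 on the plus strand, with 9236 bases between them. *Dlx5* stood at 48.1, 51.5, 45, 43.6 and 52.4 CPM under the control label, and at 45.9, 37.7, 39.1, 45 and 48.7 CPM under the mutant label. The groups overlapped, with 4 of 5 mutant-labelled values below the control median, and the log2 fold change was -0.15 (SE 0.08, 95% interval -0.33 to 0.02, unadjusted p = 0.0844, adjusted p = 0.687 by edgeR). It was -0.10 without mutant-labelled library 2, and -0.08 without both libraries numbered 2. *Dlx6* stood at 15.2, 17.7, 22.0, 19.5 and 18.4 CPM under the control label, and at 13.4, 16.9, 15.2, 15.2 and 17.5 CPM under the mutant label. Mutant-labelled values of *Dlx6* were below the control median in 5 of 5 libraries, with library 1 below every control value and libraries 3 and 4 level with the lowest at this precision. The log2 fold change was -0.25 (SE 0.10, 95% interval -0.47 to -0.02, unadjusted p = 0.0339, adjusted p = 0.643 by edgeR), and the exact permutation p was 0.0476. Without control-labelled library 3, the highest, it was -0.17 (unadjusted p = 0.119 by edgeR), and in 6 of 10 fits that left out 1 library (control-labelled 3, 4 or 5, or mutant-labelled 1, 3 or 4) the unadjusted p was 0.05 or more. *Dlx6* shares 104 exon bases, 4.38% of its exon length, with the opposite-strand *Dlx6os2*, which was below the filter.

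Although they are neighbours, *Dlx5* and *Dlx6* did not track each other between libraries (r = -0.26, permutation p = 0.469), and their log2 ratio averaged -1.38 ± 0.27 and -1.47 ± 0.227 (exact permutation p = 0.603). The antisense RNA gene of the locus, *Dlx6os1*, stood at 5.29 ± 0.836 and 5.05 ± 1.67 CPM (log2 fold change -0.07, adjusted p = 0.962 by edgeR). *Dlx4*, the convergent neighbour of *Dlx3* at 15150 bases, was near the detection limit, at 0.459 ± 0.138 and 0.401 ± 0.114 CPM, or 6 to 16 counts per library.

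**Figure D3:**
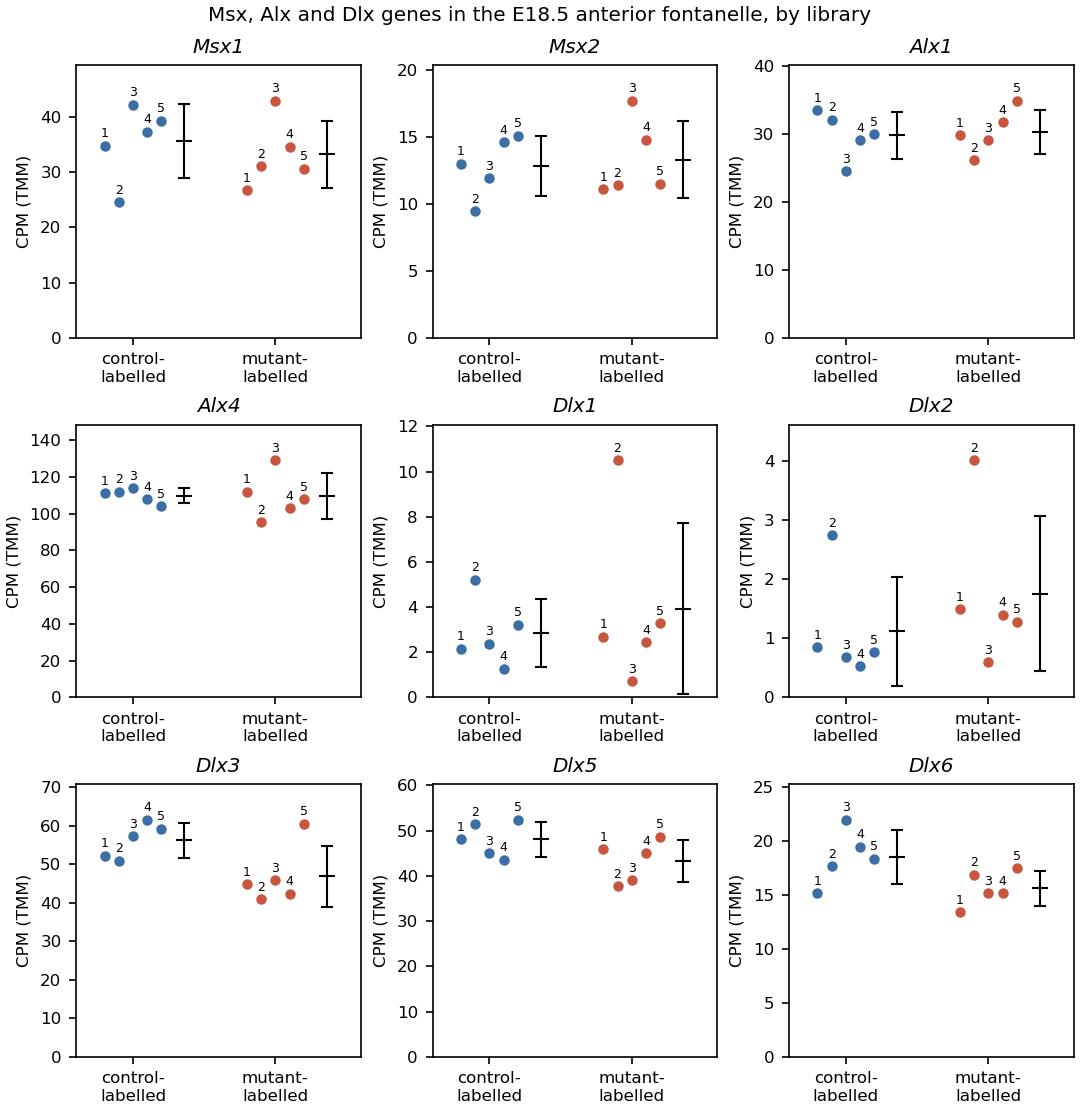
CPM of each gene (y axes from 0) in the 5 control-labelled and 5 mutant-labelled libraries, with points numbered by library and bars for the mean and SD. Groups overlap in every panel, 4 of 5 mutant-labelled *Dlx3* values lie below all control values, and libraries numbered 2 are the highest for *Dlx1* and *Dlx2*.

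Levels of osteoblast genes varied with *Dlx3* between libraries. The 15 osteoblast markers examined (among them *Ibsp*, *Dmp1* and *Alpl*, genes of the mineralized matrix) were all fitted lower in mutant-labelled libraries, 8 at an unadjusted p under 0.05 and 0 after adjustment by edgeR, with a median log2 fold change of -0.22 (0.000728 over all tested genes). Over all tested genes 49.7% were fitted lower and 3.82% were lower at that unadjusted threshold. Their summed CPM, which the most abundant genes dominate, had medians of 122000 under the control label (107000 to 127000) and 125000 under the mutant label (89400 to 129000). *Dmp1* was at 523 ± 92.3 and 350 ± 57.7 CPM (adjusted p = 0.321 by edgeR), and *Alpl* at 504 ± 48.9 and 386 ± 46.0 CPM (adjusted p = 0.336 by edgeR). Against the mean log2 CPM of these 15 genes, with group means removed, *Dlx3* had r = 0.807 (permutation p = 0.0025, 0.045 adjusted over 36 pairs) and rho = 0.891 (permutation p = 0.00132, 0.0475 adjusted). It had r = 0.703 without the 2 libraries farthest from the median. *Dlx2* had r = -0.779 (permutation p = 0.00931, 0.0715 adjusted, -0.714 without the 2 libraries) and *Dlx1* r = -0.694 (permutation p = 0.0388, 0.155 adjusted). *Dlx5* and *Dlx6* had r = -0.0809 and 0.302 (permutation p = 0.836 and 0.394). With that mean as a covariate in edgeR the *Dlx3* log2 fold change was 0.01 and that of *Dlx6* -0.15 (adjusted p = 0.999 for both). The part of osteoblast content in these values was not tested. Correlations with marker lists were computed after the members' values were seen. Their points share one dissection and one library preparation each.

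*Dlx1* and *Dlx2* encode factors of the first pharyngeal arch and of inhibitory neurons of the forebrain, and were scarce here. They converge on chromosome 2, *Dlx1* at chr2:71528113-71533981 on the plus strand and *Dlx2* at chr2:71543408-71546754 on the minus strand, 9426 bases apart. *Dlx1* stood at 2.15, 5.21, 2.38, 1.27 and 3.21 CPM in control-labelled libraries 1 to 5, and at 2.69, 10.5, 0.728, 2.43 and 3.27 CPM in mutant-labelled libraries 1 to 5. Counts ran from 17 to 263 per library, a 14.4-fold range in CPM, with mutant-labelled library 2 the highest and library 3 the lowest of all 10. The log2 fold change was 0.46 (SE 0.57, 95% interval -0.79 to 1.71, adjusted p = 0.888 by edgeR) and -0.32 without mutant-labelled library 2 (adjusted p = 0.955 by edgeR). *Dlx2* stood at 0.853, 2.74, 0.680, 0.531 and 0.761 CPM under the control label, and at 1.49, 4.01, 0.599, 1.40 and 1.28 CPM under the mutant label, from 13 to 101 counts. The libraries numbered 2 were the highest within each label, and 4 of the 5 mutant-labelled values lay above the control median. *Dlx1* shares 335 exon bases, 6.21% of its exon length, with the opposite-strand *Dlx1as*, which was below the filter. The *Dlx2* log2 fold change was 0.64 (SE 0.54, 95% interval -0.54 to 1.84, adjusted p = 0.820 by edgeR), 0.09 without mutant-labelled library 2, 1.32 without control-labelled library 2 (unadjusted p = 0.0195, adjusted p = 0.548) and 0.75 without both (unadjusted p = 0.0435, adjusted p = 0.606).

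Spread between libraries of one label set these genes apart from the rest. The within-label SD of log2 CPM was 1.09 for *Dlx1* and 0.934 for *Dlx2*, larger than that of 97.5% and 95.9% of all tested genes. That comparison was not matched for level, and *Dlx1* and *Dlx2* had as few as 17 and 13 counts in a library. The part of low counts in this spread was not tested. For the other 7 members it was 0.121 to 0.283, and the median over the 9 members was 0.179 against 0.173 over all tested genes. *Dlx1* and *Dlx2* varied together, with r = 0.912 (permutation p = 0.0034) and rho = 0.709 (permutation p = 0.034), which was 0.116 for r after adjustment over 36 pairs, and r = 0.835 without the 2 libraries farthest from the *Dlx1* median. The log2 ratio of *Dlx2* to *Dlx1* averaged -1.46 ± 0.452 under the control label and -0.92 ± 0.455 under the mutant label (exact permutation p = 0.127, 0.270 adjusted). Of the other pairs across families, *Msx2* and *Dlx2* had r = -0.784 (permutation p = 0.0146, adjusted 0.167), which became -0.262 without the 2 libraries farthest from the *Msx2* median. *Msx2* and *Dlx1* had r = -0.737 (permutation p = 0.0236), which became -0.298. *Msx1* and *Dlx2* had r = -0.77 (permutation p = 0.0217, adjusted 0.167) and rho = -0.855 (permutation p = 0.00986, adjusted 0.133), with r = -0.696 without the 2 libraries farthest from the *Msx1* median. Scaled by library size alone, r was -0.5 for *Msx1* and *Dlx2*, -0.462 for *Msx2* and *Dlx2*, and -0.429 for *Msx2* and *Dlx1* (adjusted permutation p = 0.769). *Alx1* and *Dlx5* had r = 0.714 (permutation p = 0.0278, adjusted 0.167), and 0.629 without the 2 farthest libraries. In all, 6 of 36 pairs had an unadjusted permutation p under 0.05 for r, and 0 after adjustment.

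**Figure D4:**
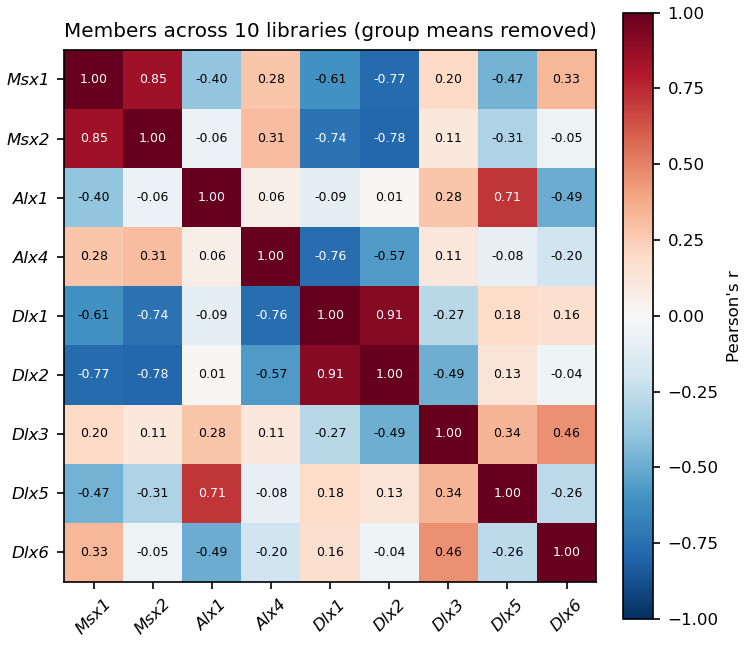
Pearson's r between log2 CPM of each pair of genes over 10 libraries with the mean of each label removed, with red for positive and blue for negative values. The convergent pair *Dlx1* and *Dlx2* (0.91) and the pair *Msx1* and *Msx2* (0.85) have the highest values, and *Dlx5* and *Dlx6* (-0.26) do not follow each other.

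The promoters of *Dlx1* and *Dlx2* are shown for the same reason and in the same way, at chr2:71529195-71529494 on the plus strand and chr2:71546705-71547004 on the minus strand. The RefSeq start used for *Dlx1* lies inside the gene span given above.
Dlx1: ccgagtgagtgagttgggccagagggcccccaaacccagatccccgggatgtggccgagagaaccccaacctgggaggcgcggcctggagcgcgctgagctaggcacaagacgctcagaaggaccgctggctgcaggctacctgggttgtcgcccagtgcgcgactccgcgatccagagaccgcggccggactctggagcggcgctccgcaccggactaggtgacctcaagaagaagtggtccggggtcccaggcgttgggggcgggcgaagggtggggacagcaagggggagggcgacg
Dlx2: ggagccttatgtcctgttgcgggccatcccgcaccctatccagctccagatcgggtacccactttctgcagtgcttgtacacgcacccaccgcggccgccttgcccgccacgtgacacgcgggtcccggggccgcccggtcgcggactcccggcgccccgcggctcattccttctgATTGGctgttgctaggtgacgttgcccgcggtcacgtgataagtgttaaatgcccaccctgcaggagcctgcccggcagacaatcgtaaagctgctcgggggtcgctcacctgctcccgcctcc
The *Dlx2* window has 1 CCAAT box, on the opposite strand at -74, and the *Dlx1* window holds none of the 4 motifs searched. Their G and C content is 69.3% and 66.3%. No shared motif of those searched was therefore present in this pair of windows, which says nothing of more distant elements.

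Forebrain inhibitory neuron markers varied with *Dlx1* by Pearson's r after adjustment, and their relation to *Dlx2* did not pass it. The 7 measured markers (*Gad1*, *Gad2* and *Slc32a1* of GABA synthesis and loading, with the transcription factors *Lhx6* and *Sp9* among them) summed to 16.5, 21.6, 16.0, 11 and 15.9 CPM in control-labelled libraries 1 to 5, and to 14.4, 35.9, 10.2, 19.8 and 15.4 CPM in mutant-labelled libraries 1 to 5. Mutant-labelled library 2 was the highest for 6 of 7 of these genes and for 9 of 10 neuron markers. By edgeR 0 of 7 inhibitory neuron genes passed at an unadjusted p under 0.05, and 1 of 10 neuron markers did (*Nefl*, adjusted p = 0.586). The median log2 fold change of the 10 neuron markers was 0.80, and 0.066 without mutant-labelled library 2. With the mean log2 CPM of the inhibitory neuron markers *Dlx1* had r = 0.965 (permutation p = 0.00243, 0.045 adjusted over 36 pairs), rho = 0.806 (permutation p = 0.0151, 0.181 adjusted) and r = 0.88 without the 2 libraries farthest from the median. *Dlx2* had r = 0.895 (permutation p = 0.00639, adjusted 0.0715) and rho = 0.709 (permutation p = 0.0329). With the mean of the 10 neuron markers r was 0.906 for *Dlx1* (permutation p = 0.00993, adjusted 0.0715) and 0.79 for *Dlx2* (permutation p = 0.0147, adjusted 0.0757), and 0.749 and 0.535 without the 2 libraries farthest from the median. With that of the epidermis markers r was 0.831 for *Dlx1* (permutation p = 0.0141, adjusted 0.0757) and 0.729 for *Dlx2* (permutation p = 0.0315, adjusted 0.142), and 0.607 and 0.428 without the 2 farthest libraries. Spearman's rho had permutation p = 0.0919 for *Dlx2* with the neuron markers, and 0.0896 and 0.129 for *Dlx1* and *Dlx2* with the epidermis markers. Differences between these r were not tested. With the neuron markers' mean as a covariate in edgeR, the log2 fold changes were -0.48 for *Dlx1* (adjusted p = 0.803) and -0.05 for *Dlx2* (adjusted p = 0.994). Brain was excluded at dissection by the study's methods, and the part of neural tissue in these values was not tested.

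**Figure D5:**
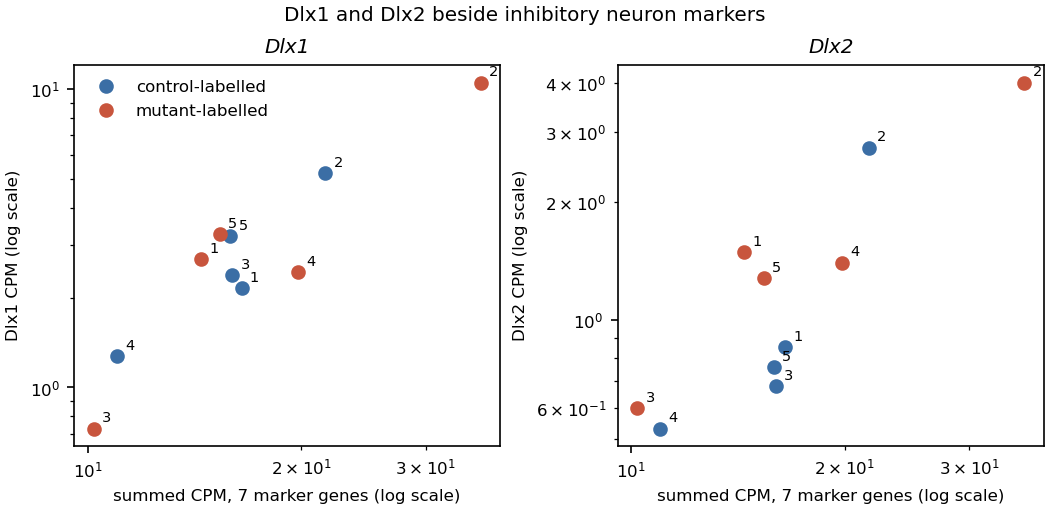
CPM of *Dlx1* and *Dlx2* (y axes, log scale) against the summed CPM of 7 forebrain inhibitory neuron markers (x axes, log scale) in each library, numbered and coloured by label. The libraries numbered 2 of both labels lie at the upper right, at 35.9 and 21.6 CPM of the markers.

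Skin markers were low, and so were the inhibitory neuron markers, which summed to 11 to 21.6 and 10.2 to 35.9 CPM, control label first. The summed CPM of the 9 epidermis genes in the table ran from 10.5 to 16.0 under the control label and from 10 to 14.0 under the mutant label, and *Krt14*, *Krt1*, *Trp63*, *Lor* and *Flg* each averaged under 1 CPM. *Perp* was at 6.62 ± 2.01 and 5.44 ± 1.21 CPM and *Krt10* at 2.04 ± 0.137 and 1.72 ± 0.316 CPM. Muscle markers reached 736 and 731 CPM in control-labelled library 2 and mutant-labelled library 1, against a lowest value of 23.9, and 0 of 8 differed by label at an unadjusted p under 0.05. Endothelial and meningeal lists likewise had 0 of 8 genes each at that threshold. Connective tissue lists went both ways, with 4 of 8 tendon and ligament genes higher and 1 lower at an unadjusted p under 0.05 by edgeR, and 4 of 9 chondrocyte genes higher and 0 lower, none after adjustment. Among these, *Tnmd*, a tendon membrane protein, was at 44.1 ± 6.41 and 65.8 ± 13.5 CPM (adjusted p = 0.326), and *Col2a1*, the collagen of cartilage, at 56.2 ± 8.91 and 103 ± 34.6 CPM (adjusted p = 0.302). *Tnc*, a matrix glycoprotein of tendon, was at 1400 ± 117 and 1180 ± 130 CPM (adjusted p = 0.595). Summed CPM had medians of 1800 and 1750 for the tendon and ligament list and 1550 and 1420 for the chondrocyte list, control label first. The background was 3.68% of tested genes in the higher direction.

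BMP signals lie upstream of several members. Of 26 BMP pathway genes, 1 was higher and 3 were lower at an unadjusted p under 0.05 by edgeR and 0 after adjustment, with a median log2 fold change of -0.03, where 3.68% of all tested genes were higher and 3.82% lower. *Nog*, which encodes the secreted BMP antagonist noggin, was at 21.1 ± 0.909 CPM under the control label and 16.4 ± 0.773 under the mutant label (log2 fold change -0.36, SE 0.06, unadjusted p = 4.01e-05, adjusted p = 0.119). *Chrd*, which encodes the antagonist chordin, was at 11.2 ± 0.612 and 13.4 ± 1.37 CPM (adjusted p = 0.522). The other pair comprised *Bambi*, a pseudoreceptor, at 46.7 ± 4.73 and 39.3 ± 5.22 CPM (adjusted p = 0.631), and *Smad9*, a signal transducer, at 15.3 ± 0.889 and 12.7 ± 2.31 CPM (adjusted p = 0.649). Of 23 tested transcription factors of head mesenchyme outside these families, 2 were higher and 0 lower at that unadjusted threshold and 0 after adjustment, and 17 were fitted higher, against 3.68% higher at that threshold and 49.7% fitted lower over all tested genes. The 2 were *Lmx1b*, a LIM homeodomain factor that restrains bone formation in the sutures, at 21.1 ± 2.62 and 27.8 ± 4.75 CPM (adjusted p = 0.445), and *Meis2*, a homeodomain cofactor needed in cranial neural crest, at 11.7 ± 3.33 and 18.2 ± 6.08 CPM (adjusted p = 0.580).

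Likeness of pattern was described by Pearson's r of log2 CPM over 10 libraries, with group means removed, among 14478 genes with a mean of at least 1 CPM. Each value is among the highest of so many and is given without a test. Closest to *Msx1* were *Cpq* (0.949), *Stn1* (0.942) and *Eci1* (0.937), and to *Msx2* *Angpt2* (0.976), *Fmod* (0.967) and *Gpr182* (0.961). *Alx1* was most like *Ecm2* (0.984), *Rnf19a* (0.973) and *Platr25* (0.926), and *Alx4* most like *Hacl1* (0.973), *Pcdhb3* (0.961) and *Amotl1* (0.947). The genes nearest to *Dlx1* were *Pou3f2* (0.963), *Lrfn5* (0.961) and *Cacnb1* (0.955), and those nearest to *Dlx2* were *Tlcd4* (0.972), *Pou3f3* (0.947) and *Prkar1b* (0.943). *Dlx3* was near to *Tgfb1* (0.945) and *Cd109* (0.936). *Dlx5* was nearest to *Dhdds* (0.949), *Aspn* (0.926) and *4930430F08Rik* (0.919), and *Dlx6* to *Mgat4b* (0.959), *Serpinb8* (0.955) and *Clp1* (0.932). No member was among the 3 nearest genes of another.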

How the data were processed

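The AF was sampled from 5 embryos labelled WT and 5 labelled NCC Fgfr2 KO. Stranded libraries were sequenced in single-end mode, and the authors deposited estimated counts per gene, unscaled between libraries. The submitters' processing notes name Partek and mm10, and the aligner, counting tool and strand setting are not given in the sources used here. Of the deposited estimated counts 66.4% were whole, and each gene had a sum of at least 10 over the libraries. They were rounded to whole numbers. Genes passing edgeR's expression filter (16267 tested, 6813 left out) were TMM-normalized and tested with edgeR's quasi-likelihood method (edgeR 4.0.16, limma 3.58.1, DESeq2 1.42.0, R 4.3.3) without covariates. P-values were adjusted by the Benjamini-Hochberg method across the genes tested, and 0.05 was the threshold. Log2 CPM used a prior count of 0.5. Single values were compared by two-sided exact permutation over all 252 groupings, which cannot give a p-value under 0.00794, and correlations by exact permutation within each label (14400 permutations, SciPy 1.17.1), adjusted over 36 pairs. Exact permutation, correlation and edgeR code was tested on simulated data.

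The members and lists were chosen with earlier results of these data known. Genes named are the 9 members, family genes outside the rule, *Fgfr2*, in each list up to 4 genes with the smallest unadjusted p, and for each member the 3 nearest genes. Some of these genes are not reported here. Littermates were used by the study, the matching of libraries within litters is not given in the sources used here, and tests are unpaired, so p-values measure the spread between these libraries, which may be partly technical. Depth was 20774667 to 28515434 counts per library, so members other than *Dlx1* and *Dlx2* rest on 239 or more counts in every library. Antisense genes that share exon bases with a member cannot be told apart without a strand setting. Sequences are from RefSeq, matched by symbol for 4 of 9 members. Alternatives tried were other scalings, filters, tools, covariates, the replicate number as a block and leaving out each library.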

Additional observations from a re-analysis of the deposited data

Results flagged for a closer look

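Of 32 groups of 5 values checked (9 members, 3 further family genes and 4 paralog ratios under each label), 5 had an extreme value whose gap to its neighbour exceeded 0.71 of the group's range, Dixon's critical value for 5 samples, which chance passes in about 1 in 20 groups. *Dlx1* was at 10.5 CPM in mutant-labelled library 2, and the next highest of that label was at 3.27 CPM. *Dlx2* was at 4.01 CPM in the same library, with 1.49 CPM next, and at 2.74 CPM in control-labelled library 2, with 0.853 CPM next. The same 2 libraries had the highest summed inhibitory neuron markers, 35.9 and 21.6 CPM. *Dlx3* was at 60.6 CPM in mutant-labelled library 5, with 45.9 CPM next. The log2 ratio of *Msx2* to *Msx1* was -1.82 in control-labelled library 3, with -1.41 next.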

How the results depend on the processing

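The number of members past the adjusted threshold was 0 under every alternative run, and 2 at an unadjusted p under 0.05. Over all tested genes, 3 passed. The count was 97 by DESeq2's Wald test, 1219 at an unadjusted p under 0.05, and 9 with both libraries numbered 2 left out. It was 1 with library size alone, with the replicate block, with *Xist*, the osteoblast score or the neuron score as a covariate, and 1 to 6 when a library was left out. Members with an unadjusted p under 0.05 numbered 0 with limma voom and with the osteoblast score, 1 with the neuron score, and 0 to 3 when a library was left out. Of 16267 tested genes 1191, 662 and 1169 were under that threshold with voom, the osteoblast score and the neuron score. When a library was left out, 855 to 1370 of all tested genes were under it.

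*Dlx5* and *Dlx6* kept their sign under all 22 alternatives run for fold changes. With the osteoblast score as a covariate the log2 fold change turned to 0.17 for *Msx1*, 0.10 for *Alx4*, -0.95 for *Dlx1*, -0.78 for *Dlx2* and 0.00826 for *Dlx3*. With the neuron score it turned to -0.48 for *Dlx1*, -0.0537 for *Dlx2* and 0.0409 for *Alx4*. With limma voom it turned to 0.0142 for *Alx4* and -0.0482 for *Dlx1*, with library size alone to -0.0221 for *Alx1*, and with both libraries numbered 2 left out to 0.0444 for *Alx4*. Leaving out 1 library gave -0.202 to -0.0221 for *Msx1*, -0.0622 to 0.126 for *Msx2*, -0.0320 to 0.0779 for *Alx1*, -0.0675 to 0.0418 for *Alx4*, -0.32 to 0.81 for *Dlx1*, 0.09 to 1.32 for *Dlx2*, -0.37 to -0.21 for *Dlx3* and -0.199 to -0.102 for *Dlx5*, whose unadjusted p was under 0.05 in 2 of these 10 fits and with *Xist* as a covariate. The difference in log2 ratio between labels ran from 0.0545 to 0.172 for *Msx2* to *Msx1*, -0.116 to 0.0402 for *Alx4* to *Alx1* and from -0.162 to 0.00112 for *Dlx6* to *Dlx5*. Median log2 fold changes turned to 0.0156 (osteoblast score) and 0.0258 (both libraries numbered 2 left out) for the BMP list, which ran from -0.0494 to 0.0269 when a library was left out, and to -0.65 (osteoblast score) and -0.10 (neuron score) for the neuron list. The cause of these changes was not tested, and each covariate includes variation between the labels.

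Same-numbered libraries had correlations of their deviations of -0.203, 0.139, -0.211, 0.0268 and -0.142. These values over all genes do not settle whether same-numbered libraries are littermates. With the replicate block 1 gene and 0 members passed. In that edgeR fit 3 of 9 members had an unadjusted p under 0.05, as did 1076 of 16267 tested genes. Of these members *Dlx2* was higher under the mutant label, and *Dlx3* and *Dlx6* were lower. At 13 to 101 counts per library, *Dlx2* had a 95% interval that spanned over 2 log2 units in the main fit without the block. The SE of its log2 fold change was 0.54 there and 0.256 with the block.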
